A study of Mus musculus with 5 samples.

Results

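LINE elements (long interspersed nuclear elements) were followed subfamily by subfamily through single-cell RNA-sequencing of 3 mouse cell types. Features deposited under a repeat name starting with L1, L2, L3 or Lx were taken as LINE, and a feature not listed for a plate was taken as 0 reads. This gave 3246 LINE features among 8654 repeat features and 24288 features of all kinds. Of these, 111 carry a single subfamily name and are called subfamilies here, and 3135 carry several names, for example 2 subfamilies written together. ES R1, a mouse embryonic stem cell line labelled as sphere-derived, filled 3 plates of 96 wells (ES replicates 1, 2 and 3), while 1 plate held Neuro2A, a neuroblastoma line of the mouse, and 1 plate held fibroblasts from mouse embryos (MEF). Cells were sorted 1 to a well, each well received its own barcode at reverse transcription, and the wells of a plate were pooled before PCR. MEF and Neuro2A shared a serum-containing DMEM medium and ES R1 cells were kept under a separate published protocol, so cell type and culture cannot be told apart. No genotype, treatment, passage or age is given for any group, and the labels do not say whether the ES plates came from separate cultures, so their spread may be technical.

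LINE-1 (L1) elements are retrotransposons that copy themselves through an RNA intermediate, using an RNA-binding protein and a reverse transcriptase with endonuclease that they encode. Most genomic copies are truncated and inactive, L2 and L3 are ancient families that no longer move, and in mouse the L1Md families include the copies still able to transpose. In pluripotent cells and the early embryo L1 transcription is known to be held back by DNA methylation and by histone H3 lysine 9 methylation, and to be less tightly held than in most differentiated cells. Subfamilies were placed in 3 age classes by name. The young class holds the 6 L1Md names, of which L1Md_A, L1Md_T and L1Md_Gf include active copies. The rodent class holds 28 names (Lx, L1_Mus, L1_Mm, L1_Mur, L1VL and L1_Rod), and the old class the other 77, namely the remaining L1 names and 5 L2 or L3 names. A feature with several names was counted in a class when all its names belonged to it. Reads were not divided by the length or genomic copy number of a subfamily, so values rank how many reads a name received and not how active a copy is. A read within a LINE can come from the element's own transcript or from a gene transcript that contains it, and the counts cannot tell these apart.

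A well entered with 1000 gene reads or more, as 93, 66 and 94 wells of ES replicates 1, 2 and 3, 86 Neuro2A wells and 92 MEF wells did. These are 431 wells in all, beside 436 single cells in the stated design. Kept wells held between 262517 gene reads in ES replicate 2 and 11432543 in ES replicate 1. The same 96 barcodes had reads on every plate. ES replicate 2 stood apart: repeats made up 84.9% of its gene and repeat reads, against 25.8% to 43.7% on the other plates, and 1 barcode held 25.9% of its gene reads and 65.1% of its repeat reads. Levels are given as CPM, here reads per 1000000 gene reads of the plate or well. The summed ES markers came to between 5889 and 8991 CPM on the ES plates, against 0.317 in Neuro2A and 1.71 in MEF, and Neuro2A markers to 1755 in Neuro2A, 158 in MEF and 82.7 to 190 on the ES plates. MEF markers summed to 4616 CPM in ES replicate 3, with all 9 of 9 detected, against 817 and 1760 in ES replicates 1 and 2 and 29398 in MEF. In read counts, not CPM, genes specific to MEF had in ES replicate 3 a median of 10.8% of their MEF reads. Genes specific to Neuro2A had in MEF a median of 9.43% of their Neuro2A reads. Subtracting reads at those shares, barcode by barcode, took away 15.3% of LINE reads from ES replicate 3 and 4.13% from MEF. The subtracted reads are called carried-over here, and how they came to be on those plates was not tested.

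LINE reads made up a variable part of the repeat reads, and the ES plates spanned both other cell types. The kept wells held 517736 LINE reads in ES replicate 1, 401412 in replicate 2, 86629 in replicate 3, 90213 in Neuro2A and 146514 in MEF. They were 11.2%, 27.3% and 5.23% of the repeat reads of ES replicates 1, 2 and 3, a mean of 14.6% ± 11.4 (SD, n = 3). Neuro2A had 7.30% and MEF 14.4%, both inside the range of the ES plates. Without its deepest barcode, ES replicate 2 had 21.2%, which lowered the ES mean to 12.6% ± 8.09 and put it below MEF. Set against gene reads, LINE reads came to 45286, 1529090 and 40590 CPM on the ES plates, against 28593 in Neuro2A and 49990 in MEF. ES replicate 2 was thus far above every other plate on this scale, and stayed so at 561011 without its deepest barcode, while ES replicates 1 and 3 lay between Neuro2A and MEF. Without its well with the most LINE reads MEF had 41908 CPM, below ES replicate 1. With 3 plates against 1, an exact two-sided permutation test cannot go below p = 0.5, so these plate values are given without a test.

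**Figure D1:**
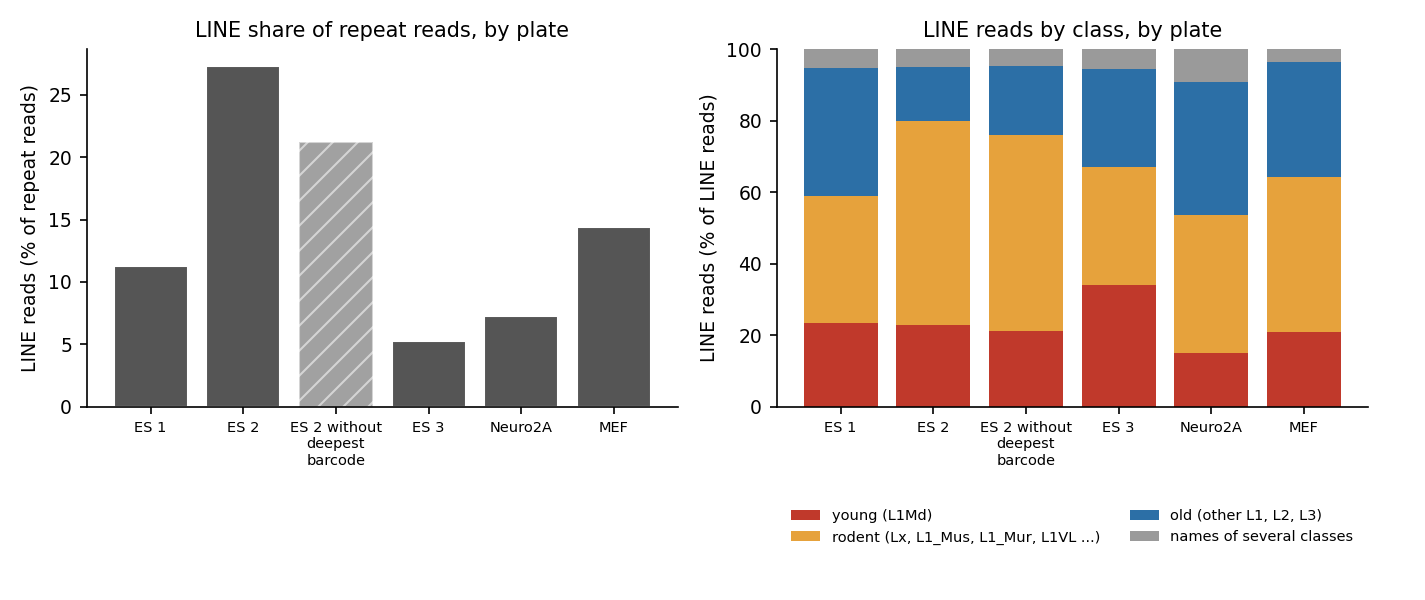
Left, LINE reads as a percentage of repeat reads on each plate, with the hatched bar for ES replicate 2 without its deepest barcode; right, LINE reads of each plate divided into young, rodent and old classes and features whose names span classes, in percent of LINE reads. ES replicate 2 has the highest LINE share of repeat reads (27.3%), ES replicate 3 the largest young class (33.9%) and Neuro2A the smallest (14.9%).

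The age classes divided LINE reads differently on each plate. Young L1Md reads were 23.5%, 22.8% and 33.9% of LINE reads in ES replicates 1, 2 and 3 (26.7% ± 6.25, SD, n = 3), against 14.9% in Neuro2A and 21.0% in MEF. Every ES plate therefore gave L1Md a larger part of its LINE reads than either other plate, although ES replicate 2 stood at 21.1% without its deepest barcode, level with MEF. The active families taken alone gave another order, at 16.7%, 8.14% and 22.9% on the ES plates against 8.02% in Neuro2A and 10.9% in MEF, with ES replicate 2 below MEF. Rodent names took 35.5%, 57.1% and 33.0% of LINE reads on the ES plates, against 38.7% in Neuro2A and 43.3% in MEF. Old names took 35.6%, 15.1% and 27.5% on the ES plates, against 37.3% in Neuro2A and 32.0% in MEF. ES replicate 2 had the largest rodent and the smallest old part of all plates, and kept this makeup without its deepest barcode (54.9% rodent, 19.2% old, 21.1% young). L2 and L3 reads, from the oldest families, were 3.64%, 2.45% and 3.61% of LINE reads on the ES plates, all below Neuro2A (6.07%) and MEF (5.30%). A further part, 4.05% to 4.53% on the ES plates, against 5.99% in Neuro2A and 3.10% in MEF, had names from several classes, and at most 3.09% had a LINE name together with another repeat.

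The ratio of young to old reads separated ES from Neuro2A but hardly from MEF. Its log2 was -0.60, 0.59 and 0.31 in ES replicates 1, 2 and 3, a mean of 0.10 ± 0.62 (SD, n = 3), against -1.32 in Neuro2A and -0.61 in MEF. ES replicate 1 and MEF had almost the same ratio (0.659 and 0.657 young reads per old read), whereas Neuro2A (0.401) was below every ES plate. Without its deepest barcode ES replicate 2 had a log2 ratio of 0.14. Set against gene reads, young L1 reached 10641, 348042 and 13775 CPM on the ES plates, against 4273 in Neuro2A and 10502 in MEF. Neuro2A was the lowest plate by this measure, and ES replicate 1 exceeded MEF by only a small margin. With carried-over reads subtracted, MEF was no longer below every ES plate in CPM. As a share of repeat reads, young L1 was 2.64%, 6.21% and 1.78% on the ES plates, against 1.09% in Neuro2A and 3.03% in MEF. On that scale MEF was above ES replicates 1 and 3. Old LINE reads came to 16136, 230979 and 11143 CPM on the ES plates, against 10669 in Neuro2A and 15991 in MEF. The order of ES replicates 1 and 3 thus turned round between the classes, replicate 3 being higher for young and lower for old names. In CPM, the mean log2 difference of ES from MEF was 1.82 for young and 1.11 for old reads, and from Neuro2A 3.12 and 1.70. Without ES replicate 2 these fell to 0.21 and -0.25 against MEF and to 1.50 and 0.33 against Neuro2A, so all 4 differences were larger with that plate than without it.

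**Figure D2:**
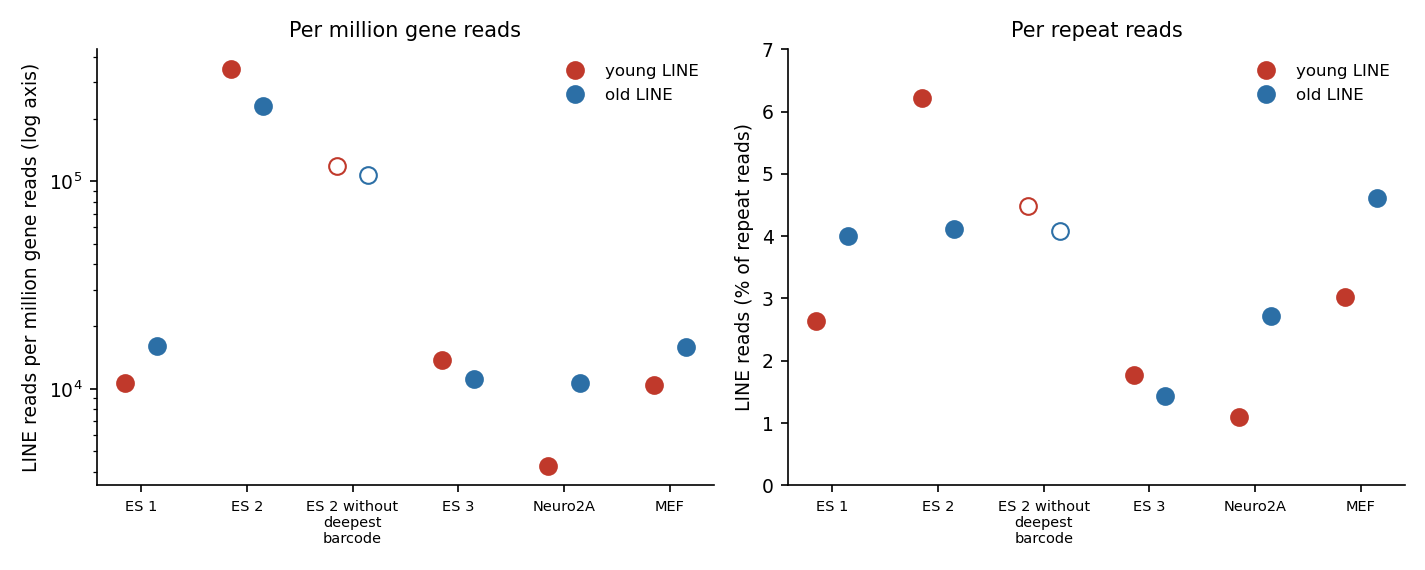
Young L1 reads (red) and old LINE reads (blue) by plate, left in CPM on a log axis and right as a percentage of repeat reads; open circles show ES replicate 2 without its deepest barcode. ES replicate 2 lies highest for young reads on both scales, and Neuro2A lowest.

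The 6 young families did not share 1 pattern. L1Md_A, which includes active copies, reached 2175 CPM in ES replicate 1, 61607 in replicate 2 and 3293 in replicate 3, and stood at 1336 in Neuro2A and 3063 in MEF. MEF lay between the ES plates for it, but 42.6% of its MEF reads were in 1 well, and without that well MEF had 1765, below every ES plate. In Neuro2A 41.5% of its reads were likewise in 1 well. L1Md_Gf, which also has active copies, had 3082, 26943 and 4661 on the ES plates, against 599 in Neuro2A and 1393 in MEF. Every ES plate exceeded both other plates, and the well medians had the same order (2245, 6682 and 4265 against 68.9 and 451). L1Md_T had 1822, 32851 and 1014 on the ES plates, against 272 in Neuro2A and 934 in MEF, which placed ES replicate 3 just above MEF. L1Md_F3 showed the same order at a lower level, at 258, 25130 and 239 on the ES plates, against 138 in Neuro2A and 148 in MEF. L1Md_F and L1Md_F2 differed: MEF, at 1664 and 2583, was above ES replicates 1 and 3 (891 and 1353 for L1Md_F, 1182 and 1850 for L1Md_F2), and ES replicate 2 was far above at 42790 and 129016. Neuro2A was below all ES plates for each of the 6, and MEF for L1Md_F3, L1Md_Gf and L1Md_T.

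As parts of the LINE reads of each plate, the young families kept separate profiles between ES plates. L1Md_Gf took 6.80% of LINE reads in ES replicate 1, 11.5% in replicate 3 and 1.76% in replicate 2, the last below Neuro2A (2.10%) and MEF (2.79%). L1Md_F2 ran the other way, with 8.44% in ES replicate 2 against 2.61% and 4.56% in replicates 1 and 3, 3.33% in Neuro2A and 5.17% in MEF. L1Md_F3 took 1.64% there against 0.571% and 0.590%. ES replicate 2 was thus rich in L1Md_F2 and L1Md_F3 and poor in L1Md_Gf among its LINE reads. Removing its deepest barcode hardly altered this, at 1.78% for L1Md_Gf and 7.65% for L1Md_F2. L1Md_T took 4.02%, 2.15% and 2.50% on the ES plates, against 0.951% in Neuro2A and 1.87% in MEF, the only active family above both other plates on each ES plate by this measure.

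In the rodent class, the 3 names with the highest mean share of LINE reads were L1_Mur3, Lx8 and Lx7. L1_Mur3, a murine-lineage family, had 5460, 44984 and 2297 CPM on the ES plates, against 547 in Neuro2A and 1205 in MEF. All ES plates were above both other types, and it was read in every kept well of the 3 ES plates. In ES replicate 1 alone it took 12.1% of LINE reads, against 1.91% to 5.66% on the other plates. Lx8 and Lx7, rodent-wide families, differed less. For Lx8, the ES plates were above Neuro2A but not above MEF: it had 1018, 67771 and 951 on the ES plates, against 820 in Neuro2A and 1493 in MEF. Lx7 had 1027, 40854 and 914, against 1157 and 1170, so both other plates lay among the ES plates. Lx6 in MEF (2249 CPM) rested on a single well, which held 64.7% of its reads, and had 795 without the top well.

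Old names were led by L1MC, L1M5 and L1M2 by mean share of LINE reads. L1MC, a family shared by many mammals, had 6858 CPM in ES replicate 1, 18079 in replicate 2, 1847 in replicate 3, 687 in Neuro2A and 1627 in MEF. Every ES plate was above both others for it, ES replicate 3 by a small margin over MEF. It was the largest single name of ES replicate 1, with 78410 reads spread over all 93 wells and 15.1% of LINE reads, against 1.18% to 4.55% on the other plates. No well of that plate held over 6.08% of them. L1M5 was low in 2 ES plates, at 321 and 523 in replicates 1 and 3 against 1528 in Neuro2A and 1193 in MEF, while replicate 2 had 12277. L1M2 had 510, 15934 and 686 on the ES plates, against 829 in Neuro2A and 1040 in MEF. Apart from ES replicate 2, both names were thus lower on the ES plates than on the others.

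Among the L2 and L3 names, L2 had 441, 28139 and 783 CPM on the ES plates, against 885 in Neuro2A and 1387 in MEF. L2c had 567, 5200 and 412, against 669 and 590, and 71.8% of its Neuro2A reads were in 1 well. L3 had 400, 2689 and 159 on the ES plates, against 125 in Neuro2A and 222 in MEF. Of these 3, L3 alone had every ES plate above Neuro2A, and none of the 3 had every ES plate above MEF.

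**Figure D3:**
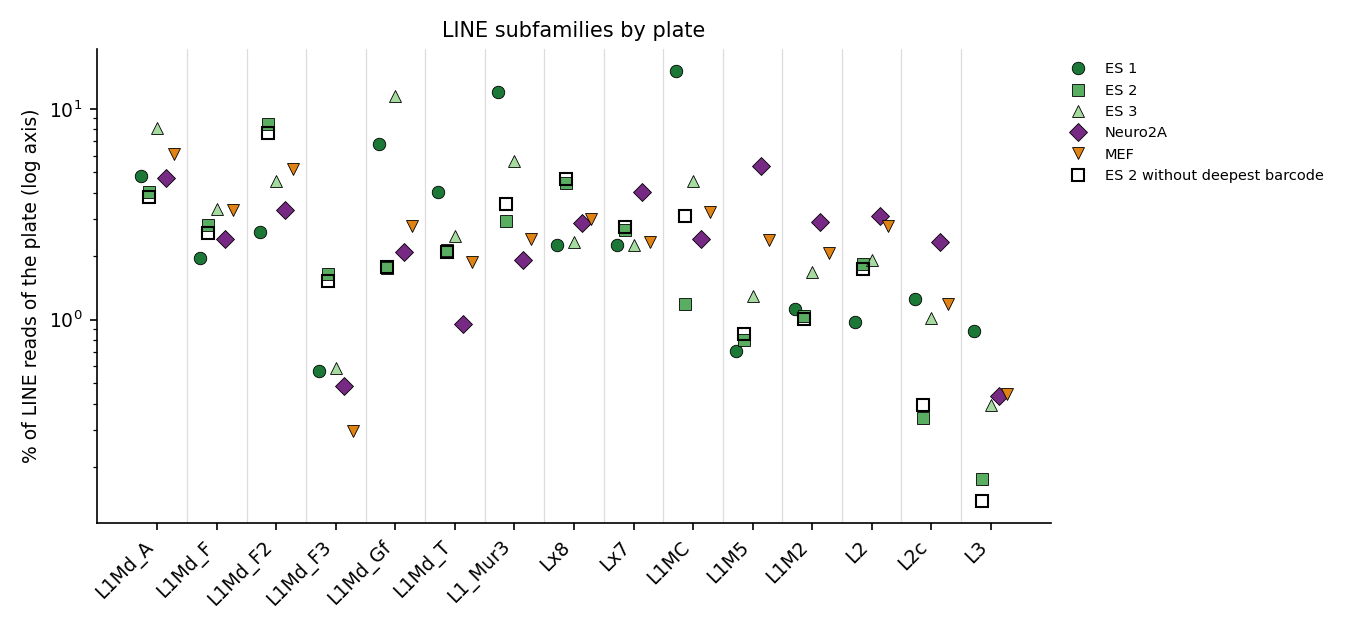
Share of the LINE reads of each plate (log axis) for the 6 L1Md names and the 3 leading names of the rodent class, the old L1 names and the L2 or L3 names; open squares show ES replicate 2 without its deepest barcode. L1MC and L1_Mur3 are highest in ES replicate 1 (15.1% and 12.1%), L1Md_Gf in ES replicate 3 (11.5%) and L1M5 in Neuro2A (5.34%).

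No LINE subfamily passed the test between cell types. Of 111 subfamilies, 108 passed the filter on low counts and were tested among 15121 genes and repeats with edgeR's quasi-likelihood test, at a Benjamini-Hochberg adjusted p of 0.05. For ES against MEF 0 of 108 were called in either direction (background 0.0% of all features), with 1 at an unadjusted p under 0.05 (4.48% of all features) and a lowest adjusted p of 0.672. ES against Neuro2A likewise gave 0 of 108 (background 0.0%), with 2 at an unadjusted p under 0.05 (7.66% of all features) and a lowest adjusted p of 0.563. The fit drew its spread from the ES plates alone, which differed so much that the biological coefficient of variation was 143%. Limma-voom called 0 in both comparisons, with 3 and 5 of 108 at an unadjusted p under 0.05, where 14.7% and 12.9% of all features were. DESeq2 called 0 against MEF (background 1.2% higher and 0.0% lower), with 12 at an unadjusted p under 0.05 (9.76% of all features). It gave no adjusted p for 2 of the 108 and for 5863 of the 15121 features, which could not be called.

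Against Neuro2A DESeq2 called 13 of 108 higher in ES and 0 lower, where it called 6.61% of all features higher and 0.258% lower. Of the 2881 tested repeats, LINE included, it called 305 higher and 5 lower, and 923 had no adjusted p. Of all 15121 features, 4104 had no adjusted p there and could not be called, against 0 of the 108. The background shares are thus lower than those among features that could be called. At an unadjusted p under 0.05 were 46 of 108, and 19.3% of all features. The 13 were Lx2A of the rodent class and 12 old L1 names (L1M2c, L1M3d, L1M7, L1MA7, L1MA9, L1MCc, L1MD1, L1MD3, L1ME2z, L1MEb, L1MEd and L1P5), and no young family was among them. All were scarce in Neuro2A, where 4 had 0 reads, 9 had at most 3 and the highest had 35. Lx2A, for example, had 38.1, 1931 and 7.50 CPM on the ES plates and 0.317 in Neuro2A, a DESeq2 log2 fold change of 10.73 ± 2.84 (SE; adjusted p = 0.00646).

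The median fitted value lay above that of all features but below that of all repeats, and without ES replicate 2 below both. The median log2 fold change of the subfamilies was 3.05 against MEF and 4.09 against Neuro2A, where all tested features had 1.05 and 1.98. All 2881 tested repeats, LINE included, had higher medians, at 4.88 and 7.66. By class the medians against MEF were 3.06 for young, 3.67 for rodent and 2.45 for old names, and against Neuro2A 4.61, 4.55 and 3.36. Without ES replicate 2 the median of the subfamilies was -1.21 against MEF and 0.13 against Neuro2A, with all features at -0.28 and 0.93. All repeats then had -1.02 and 2.25. The LINE medians were then below those of all features and of all repeats in both comparisons.

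The largest fitted differences belonged to old names with few reads. Against MEF they were L1M6, L1M3a, L1M7, L1M3d and L1MEb, with adjusted p = 0.672 each. L1M6 and L1M3a had 0 reads in MEF, which with a floor of 3 reads makes the ES mean at least 61.3-fold and 33.8-fold higher, but only 1, 49 and 3 reads of L1M6 and 0, 27 and 2 of L1M3a were counted on the ES plates. Both bounds rest on ES replicate 2, since without it the ES means (0.747 and 0.469 CPM) were under the floor of 1.02 CPM. L1M7 was more widespread, with 5.34, 2316 and 4.22 CPM on the ES plates, in 52 of 66 wells of ES replicate 2, against 0.317 in Neuro2A and 1.02 in MEF. L1M3d had 70.8, 301 and 7.97 on the ES plates, 0 reads in Neuro2A and 1 read in MEF, and its ES mean was at least 133-fold above Neuro2A, or at least 41.4-fold without ES replicate 2. The lead over MEF was 8.09 ± 3.06 (SE) on the log2 scale. Against Neuro2A the 5 names were L1M2c, L1M3d, L1MEb, L1P5 and L1M3de, all with 0 reads there and adjusted p = 0.563 each. L1P5 had 1282 reads in ES replicate 1, 36 in replicate 2 and 4 in replicate 3, at least 88.0-fold above Neuro2A on average. L1M3e was the single name fitted lower in ES than in MEF (log2 fold change -0.26 ± 2.56, SE, adjusted p = 0.972), at 0.437, 362 and 31.9 on the ES plates and 120 in MEF.

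Counting subfamilies whose groups did not overlap gave a view that does not lean on the fitted spread. In CPM, every ES plate was above MEF for 25 of 108 subfamilies (23.1%; background 29.6% of all features) and below it for 0 (background 24.2%). The MEF count upward was below its background, and the 25 were 3 of 6 young, 2 of 28 rodent and 20 of 74 old names. Every ES plate was above Neuro2A for 50 of 108 (46.3%; background 31.9%) and below it for 0 (background 21.3%). These 50 held all 6 young names, 12 of 28 rodent and 32 of 74 old names, so the young class was the only one complete. With the deepest barcode of ES replicate 2 left out, the counts upward were again 25 and 50 (backgrounds 28.1% and 29.9%), and L1M3e was then below MEF on every ES plate. To count as below, a subfamily had to be lower in ES replicate 2 too, the plate with the high LINE values on this scale.

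Among repeat reads alone, more subfamilies were below MEF than above it on every ES plate. With the deepest barcode of ES replicate 2 kept, both shares were near those of all repeats or under them. As a share of repeat reads, every ES plate was above MEF for 11 of 108 subfamilies (10.2%; background 16.0% of 2881 tested repeats) and below it for 24 (22.2%; background 19.9%). The 24 were 23 old names and L1_Rod, with L1M2, L1M4, L1M5 and L2c among them. Without the deepest barcode the counts were 10 (background 14.8%) and 34 (31.5%; background 23.9%), and L1Md_A joined the lower group. The share below MEF was then above that of all repeats. L1Md_Gf was the only young name above MEF on this scale, at 0.769%, 0.481% and 0.601% of repeat reads on the ES plates, against 0.153% in Neuro2A and 0.402% in MEF, and it no longer was once the deepest barcode was left out. Against Neuro2A every ES plate was above for 36 (33.3%; background 31.3%) and below for 8 (7.41%; background 9.51%), close to what all repeats gave. The young names above Neuro2A were L1Md_A, L1Md_Gf and L1Md_T, the families with active copies. All 8 below were old names, L1M5 and L2c included.

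The deepest barcode of ES replicate 2 held 292279 LINE reads, 72.8% of that plate's LINE reads and 12.4 times those of the next well (23501). The median of the other wells was 677. Its LINE reads were made up much like those of the other 65 wells together: Spearman's rho of the subfamily shares was 0.970 over 111 subfamilies of 1 library, given as a description. All 111 were read in that well. Among subfamilies with at least 10 reads on both sides, the share was higher in the deepest barcode for 5 of 6 young and 24 of 28 rodent names and lower for 42 of 66 old names, with median log2 differences of 0.13, 0.13 and -0.14. A few old names departed further, namely L1MC (0.462% of its LINE reads against 3.11% in the other wells), L1MA6 (0.312% against 1.18%) and L1M7 (50 reads against 558 in the other wells). The plate's excess of rodent over old names was therefore present with and without this barcode, in differing degree.

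**Figure D4:**
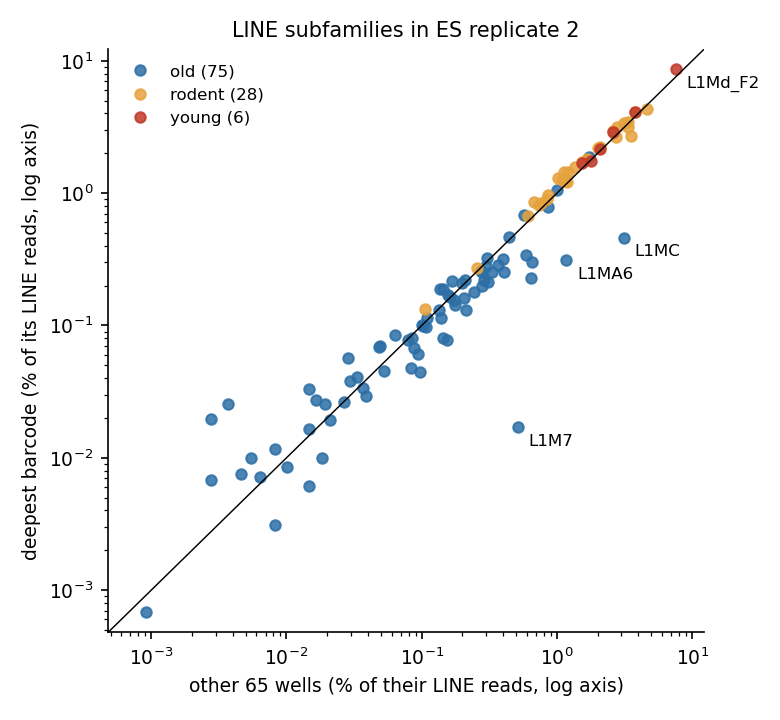
Share of LINE reads held by each subfamily in the deepest barcode of ES replicate 2 (vertical) and in the other 65 wells summed (horizontal), both on log axes, for the 109 subfamilies with reads in both; the line marks equal shares. Most points lie near the line, with L1MC, L1MA6 and L1M7 below it.

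Single wells ranged more widely than plates did, on far fewer LINE reads each, down to 17 in a Neuro2A well and 35 in an ES replicate 2 well. The part of counting error in the ranges was not tested. Young reads made up a median of 20.8% of LINE reads per well in ES replicate 1 (4.42% to 51.8%), 19.5% in replicate 2 (5.71% to 31.2%) and 32.7% in replicate 3 (12.0% to 66.2%). In Neuro2A the median was 10.6%, with wells from 0% to 89.1%, and in MEF 15.6% (2.96% to 46.5%). The medians kept the order of the summed reads, with all ES plates above MEF and MEF above Neuro2A, although the wells overlapped throughout. Young reads exceeded old reads in 17 of 93, 27 of 66 and 60 of 94 wells of the ES plates, 15 of 86 of Neuro2A and 13 of 92 of MEF. ES replicate 3 was thus the only plate where most wells had more young than old reads, and ES replicate 1 was close to Neuro2A by this count. The LINE share of repeat reads had well medians of 12.9%, 17.6% and 7.74% on the ES plates, against 6.21% in Neuro2A and 12.0% in MEF. Median LINE CPM was 48183, 299897 and 41167 on the ES plates, against 23002 in Neuro2A and 57976 in MEF, so the high level of ES replicate 2 was present in its median well (295798 without the deepest barcode).

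**Figure D5:**
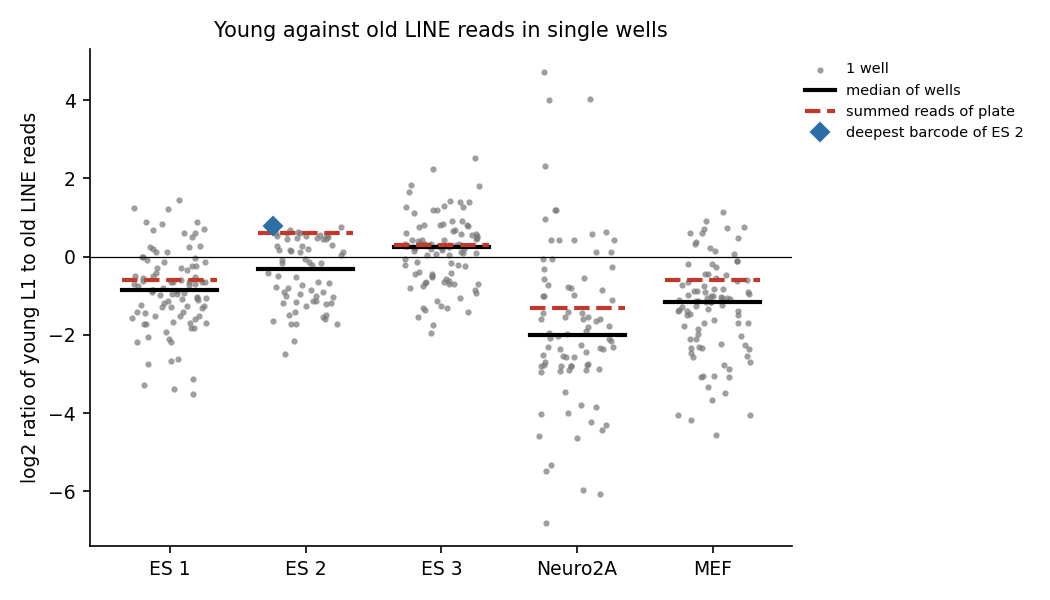
Log2 ratio of young L1 to old LINE reads in each kept well (1 read added to both), with the median of the wells as a black line, the ratio of the summed reads as a dashed red line and the deepest barcode of ES replicate 2 as a blue diamond. The wells of ES replicate 3 centre above 0 and those of the other plates below it, and Neuro2A spreads widest.

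The last base of the well barcode went along with the LINE values on some plates. In ES replicate 2 the median log2 ratio of young to old reads was 0.46 in the 21 wells whose barcode ended in G and -0.91 in the other 45. ES replicate 1 had -0.63 and -0.95, ES replicate 3 had 0.29 and 0.14, Neuro2A -1.84 and -2.11, and MEF -0.86 and -1.48. The ratio was higher with a final G on all 5 plates, and the part of the barcode in the differences between plates was not tested. In ES replicate 3 the LINE share of repeat reads had medians of 3.26% and 8.67% in the same groups of wells. Both groups of wells kept Neuro2A lowest in the ratio.

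Few wells made up a large part of some values of Neuro2A and MEF. In MEF 1 well held 23796 LINE reads beside only 2631 gene reads, a level of 9044470 CPM, and without it MEF had a log2 ratio of young to old of -0.78. In Neuro2A the feature named for both L1_Mm and L1Md_A had 2551 reads, the most of any feature with several names on that plate, and 97.7% of them came from 1 well. Single names held between 86.7% of LINE reads in Neuro2A and 89.8% in ES replicate 1, and features with several names the rest. On the ES plates the leading pairs were instead of young families, with 3290, 1290 and 941 reads for L1Md_Gf with L1Md_F. With wells thinned to 1000 repeat reads, the median well held 26, 46 and 24 subfamilies on the ES plates, against 15 in Neuro2A and 28.5 in MEF, and 0, 2, 1, 10 and 0 wells were too shallow to enter. Before thinning the medians were 64, 68, 53.5, 35.5 and 53. Neuro2A showed the fewest subfamilies by either count. Thinning was to repeat reads, so thinned wells still differed in LINE reads. Neuro2A also had the lowest median LINE share of repeat reads (6.21%), so the count does not compare subfamilies at equal LINE depth.

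How closely the classes followed each other between wells also differed by plate. Spearman's rho of young with old LINE CPM was 0.588, 0.884 and 0.265 over the wells of ES replicates 1, 2 and 3, against -0.025 in Neuro2A and 0.610 in MEF, where both share the gene reads of the well as a denominator. In ES replicate 1 the active families L1Md_A and L1Md_T had 0.710, and in ES replicate 3 they had 0.245. Wells of a plate share a library, so these are descriptions. LINE CPM had a rho of -0.613, 0.101 and -0.396 with the gene reads of the well in ES replicates 1, 2 and 3, 0.030 for Neuro2A and -0.797 for MEF. Gene reads are its denominator, so a negative rho is partly built in.

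Genes known to act on L1, most of them as restraints, together with the L1-derived L1td1, were read in the same fit. Of 40 listed genes 36 were in the files and 34 passed the filter, and edgeR called 0 in either comparison (background 0.0%). An unadjusted edgeR p under 0.05 was found for 7 of 34 against MEF (4.48% of all features) and 4 of 34 against Neuro2A (7.66%). DESeq2 called 3 higher in ES each time, Dnmt3l and L1td1 in both, Uhrf1 against MEF and Rnaseh2c against Neuro2A, and 0 lower. It called 1.2% and 6.61% of all features higher, with features lacking an adjusted p counted as not called. Dnmt3l, the cofactor of de novo DNA methylation that silences L1 in germ cells, had 1181, 876 and 1041 CPM on the ES plates and 0 reads elsewhere. L1td1, a gene derived from an L1 open reading frame and known from pluripotent cells, had 494, 198 and 695, also with 0 reads elsewhere. Both were thus read on the ES plates alone. Trim28, the corepressor that brings histone methylation to retrotransposons, had 672, 427 and 507 on the ES plates, against 210 in Neuro2A and 176 in MEF. Uhrf1, which guides maintenance methylation, had 366, 160 and 273, against 29.8 and 2.05.

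Over the list every ES plate was above MEF for 22 of 34 genes (background 29.6%) and below for 2 (background 24.2%), Morc2a, an ATPase that works with the HUSH silencing complex, and Samhd1, a nucleotide hydrolase. Above Neuro2A were 17 (background 31.9%) and below 6 (background 21.3%), namely Aof2 (Kdm1a), Ehmt1, Morc2a, Rnaseh2a, Samhd1 and Yy1. Samhd1 had 6.74, 49.5 and 41.2 CPM on the ES plates, against 78.3 in Neuro2A and 66.2 in MEF. The de novo methyltransferase Dnmt3b had 867, 769 and 341 on the ES plates, against 252 in Neuro2A and 25.9 in MEF. The list thus held more genes higher than lower on the ES plates by non-overlap, and any relation of these genes to the LINE levels was not tested. No floor was applied to these counts or their backgrounds, and some leads were small. Piwil2 had 0.0875 CPM in ES replicate 1 against 0 in Neuro2A and MEF. Suv39h2 had 4.22 in ES replicate 3 against 3.41 in MEF.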

How the data were processed

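Values were used as deposited: raw hit counts per feature and well barcode, per the readme deposited by the authors with the files. The submitters' processing notes name Bowtie. Not given in the sources used here were its version, the genome build, the repeat annotation and the treatment of reads matching several copies. The protocols in the labels describe at least 25 PCR cycles and no molecular identifiers, so counts include PCR copies and cover counting error only. Each plate had 116 barcode columns, of which 96 had reads. Gene reads in kept wells numbered 11432543, 262517 and 2134248 for ES, 3155092 for Neuro2A and 2930884 for MEF plates.

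Wells of 1000 gene reads or more were summed per plate, since wells are not replicates. All genes and repeats were fitted together with edgeR 4.0.16 (glmQLFit and glmQLFTest, library size from gene reads, TMM factors from genes, filterByExpr, Benjamini-Hochberg at 0.05, 2 residual degrees of freedom), with DESeq2 1.42.0 and limma-voom (limma 3.58.1) as alternatives, in R 4.3.3. Mitochondrial genes were left out. The fit was run on simulated data with a smaller spread between plates than that found here, a biological coefficient of variation of 143%. That run does not show how the fit performs at the spread of these plates. Class sums and shares were given per plate with no test. Carried-over reads were estimated from genes with 100 CPM or more in the source plate and 10 times or more the level of each plate that was neither source nor target (199 genes for MEF to ES replicate 3, 134 for Neuro2A to MEF). Named subfamilies were all L1Md names, the 3 with the highest mean share of LINE reads in each other class (L2 and L3 apart), and the 5 with the largest fitted change each way with at least 10 CPM in the higher group. Names outside this rule, such as those in lists of non-overlapping subfamilies, Lx6, L1MA6 and the pairs of names, were chosen after their values were seen. The members, classes, gene lists and tests were chosen with earlier results of these data known.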

Additional observations from a re-analysis of the deposited data

Results flagged for a closer look

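Wells under the minimum of 1000 gene reads were left out of the main comparisons and entered a recalculation with all wells. LINE reads were also present in them. These came to 2353 LINE reads in 3 wells of ES replicate 1, 8271 in 30 wells of ES replicate 2, 211 in 2 wells of ES replicate 3, 247 in 10 wells of Neuro2A and 792 in 4 wells of MEF. LINE reads were 32.5%, 20.4%, 14.6%, 4.15% and 12.5% of the repeat reads of those wells.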

How the results depend on the processing

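Over 136 recalculations with another setting, 129 kept the direction and call of the value reported. A difference counted as kept with the same sign and a shift under the SD over the ES plates, which was a wide limit. For young reads in ES against MEF that SD was 2.80, and the log2 difference of 1.82 counted as kept at 0.0235 as a share of repeat reads. It also counted as kept at 0.205 without ES replicate 2. The LINE share of repeat reads, 0.176 percentage points higher on average in ES than in MEF, became -1.84 without the deepest barcode of ES replicate 2, -0.947 with carried-over reads subtracted and -0.128 without the well with the most LINE reads of each plate, a setting chosen after seeing the data. With 1 ES plate left out it ran from -6.17 (without replicate 2) to 4.85. The log2 difference in old LINE reads between ES and MEF, 1.11, became -0.682 as a share of repeat reads and ran from -0.254 (without replicate 2) to 1.93 with 1 ES plate left out. The count of subfamilies called between ES and Neuro2A went from 0 with edgeR to 13 with DESeq2. In these cases the cause was not tested. No paired analysis was possible because the labels give the plates no replicate numbers shared across cell types. ES replicate 2 had the fewest gene reads, so 1 read is worth the most there on the scale of gene reads. Its LINE reads were not scarce: over all wells, 2812 LINE features had reads there, the most of any plate.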
